A study of Homo sapiens with 6 samples.

Results

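The genes described are 10 negative-feedback and transcriptional output genes of the RAS-MAPK pathway: DUSP4, DUSP5, DUSP6, SPRY1, SPRY2, SPRY4, SPRED1, SPRED2, ETV4 and ETV5. They were chosen by symbol, with earlier results of these data known, and all 10 were found among the 19923 protein-coding genes of the count tables. The measurements were 6 poly(A) RNA-seq libraries made from Kelly, a human neuroblastoma cell line that is labelled as MYCN-amplified and wild-type in genotype. Cells of both groups were transfected with siRNA by lipofection and collected after 72 hours, 3 libraries with a control siRNA (siControl) and 3 with an siRNA against METTL3 (siMETTL3). The file headers tag all 6 libraries SAC-input and the siMETTL3 libraries siMettl3B. Whether the libraries are inputs of another assay, or the siRNA is one of several, is not given in the sources used here. The comparison asks how depletion of METTL3, the catalytic subunit of the complex that places N6-methyladenosine (m6A) on mRNA, changes the expression of these genes. Both groups are 1 cell line under transient knockdown, and the labels do not say whether replicates were separate cultures, so the p-values measure the spread between these libraries, which may be technical.

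In the RAS-MAPK pathway, receptor tyrosine kinases load RAS with GTP, and RAS then activates the RAF, MEK and ERK kinases in turn. Active ERK induces transcription of its own inhibitors and of transcription factors that carry its output. DUSP4, DUSP5 and DUSP6 encode phosphatases that remove the activating phosphates from MAP kinases, DUSP6 in the cytoplasm and DUSP4 and DUSP5 in the nucleus. Sprouty (SPRY) and SPRED proteins act farther up, on the way from receptors to RAS and RAF, and SPRED proteins do so by bringing the RAS inhibitor neurofibromin to the membrane. ETV4 and ETV5 are ETS-family transcription factors of the PEA3 group. In some neuroblastomas the pathway is driven by the receptor ALK, of which Kelly cells carry an activated form.

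Promoter windows of 6 of the 10 genes were present in the RefSeq table (GRCh38.p14), each running from 250 bases before to 50 bases after the annotated start. The windows of the genes with changed expression among these 6 are printed 5′ to 3′ on the gene's strand, because their genes moved in different directions. Capitals mark the PEA3 motif AGGAAG or its reverse complement. The wider ETS motif CCGGAA was searched on both strands as well and is in none of these windows. Both motifs hold the same ETS core, though neither contains the other.
SPRY4, chr5:142324198-142324497, minus strand: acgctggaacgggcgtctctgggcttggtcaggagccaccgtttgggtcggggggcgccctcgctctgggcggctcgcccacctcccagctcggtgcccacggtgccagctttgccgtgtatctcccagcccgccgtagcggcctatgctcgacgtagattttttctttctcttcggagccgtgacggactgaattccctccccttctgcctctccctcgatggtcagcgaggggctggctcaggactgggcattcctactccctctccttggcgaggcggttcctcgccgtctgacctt
SPRED2, chr2:65432550-65432849, minus strand: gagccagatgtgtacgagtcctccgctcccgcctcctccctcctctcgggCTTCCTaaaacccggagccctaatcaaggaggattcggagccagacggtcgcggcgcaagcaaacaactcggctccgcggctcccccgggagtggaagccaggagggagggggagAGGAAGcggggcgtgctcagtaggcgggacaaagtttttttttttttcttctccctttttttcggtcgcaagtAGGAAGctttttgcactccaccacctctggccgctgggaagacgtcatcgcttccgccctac
DUSP6, chr12:89352452-89352751, minus strand: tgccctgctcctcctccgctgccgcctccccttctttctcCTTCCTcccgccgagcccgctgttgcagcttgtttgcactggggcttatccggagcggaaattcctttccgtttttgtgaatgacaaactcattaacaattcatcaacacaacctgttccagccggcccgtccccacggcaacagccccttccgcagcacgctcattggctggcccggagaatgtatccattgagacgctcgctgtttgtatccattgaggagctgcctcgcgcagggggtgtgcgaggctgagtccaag
The PEA3 motif was found 3 times in the window of SPRED2, once in that of DUSP6 and not in that of SPRY4. The windows of SPRED2 and DUSP6 cover the 5′ ends of the counted spans. That of SPRY4 lies inside its counted span, which reaches to 142326455, so the sequence at that 5′ end was not searched. The PEA3 motif was in 4 of the 6 member windows and in 33.6% of all 35116 windows of this length. CCGGAA was in 1 of the 6 (SPRY2) and in 17.2% of all windows. The AP-1 motif TGACTCA and the CRE motif TGACGTCA, both searched on both strands, were in 0 of the 6 windows and in 4.9% and 1.8% of all windows. These matches describe letters only and say nothing of binding.

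Total counts per library ranged from 15430000 (siControl replicate 3) to 21565013 (siMETTL3 replicate 2). The first principal component of log2 expression held 69.9% of the variance and separated the groups, with siControl replicate 3 farthest out. The targeted gene METTL3 (chromosome 14, 21498133 to 21511342) had raw counts of 1154, 1055 and 847 in siControl and 679, 692 and 705 in siMETTL3, so that 61.0% of its control level remained (log2 fold change -0.71, edgeR FDR 4.68e-06). The METTL3 span overlaps that of TOX4, and the part of TOX4 reads in these counts was not tested. Kelly cells expressed markers of sympathetic neuroblasts. HAND2, the gene of a sympathetic lineage transcription factor, was at 375 to 397 CPM (counts relative to the scaled library size) in siControl and 527 to 563 CPM in siMETTL3. DBH, the gene of the enzyme that makes noradrenaline, was at 936 to 1155 CPM in siControl and 1320 to 1411 CPM in siMETTL3. The summed level of 5 blood cell markers was 0.398 to 0.695 CPM in siControl and 0.276 to 0.487 CPM in siMETTL3, and that of 4 epithelial markers 6.41 to 7.14 and 6.09 to 8.36 CPM. The sum of 3 Schwann cell markers was 2.59 to 3.43 CPM in siControl and 3.99 to 5.51 CPM in siMETTL3, without overlap, and neither of the 2 that could be tested was called. The sum of 6 fibroblast markers was 10.8 to 14.6 CPM and 14.3 to 16.3 CPM. Of the 3 that could be tested, COL1A1, named here after its value was seen, was called higher (log2 fold change 0.86, FDR 0.02). The other 2 were not called. COL3A1 was lower in siMETTL3, without overlap (log2 fold change -0.64, FDR 0.0629), and PDGFRA had a log2 fold change of 0.18 (FDR 0.34). The part of these low-level markers in the results was not tested. In bulk RNA, fewer cells of a type and less RNA per cell cannot be told apart.

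The feedback and output genes did not move as a block. In siMETTL3, ETV4 rose 2.03-fold, SPRY4 1.96-fold and SPRED2 1.32-fold, while DUSP6 fell to 49.7% of its control level, DUSP4 to 79.1% and ETV5 to 80.4%. SPRY1, SPRY2, SPRED1 and DUSP5 did not pass the threshold, a Benjamini-Hochberg adjusted p (FDR) under 0.05 over all 15311 genes tested with edgeR's quasi-likelihood test. All 10 genes passed the filter on low counts. Of the 10, 3 were called higher and 3 lower, where 18.6% of all genes tested were called higher, 19.2% lower and 37.8% in either direction. The groups did not overlap in 7 of the 10, against 49.9% of all genes tested. The median log2 fold change of the 10 was -0.02, against -0.0021 over all genes tested, and their summed level overlapped between the groups, at 388 to 406 CPM in siControl and 386 to 406 CPM in siMETTL3.

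**Figure D1:**
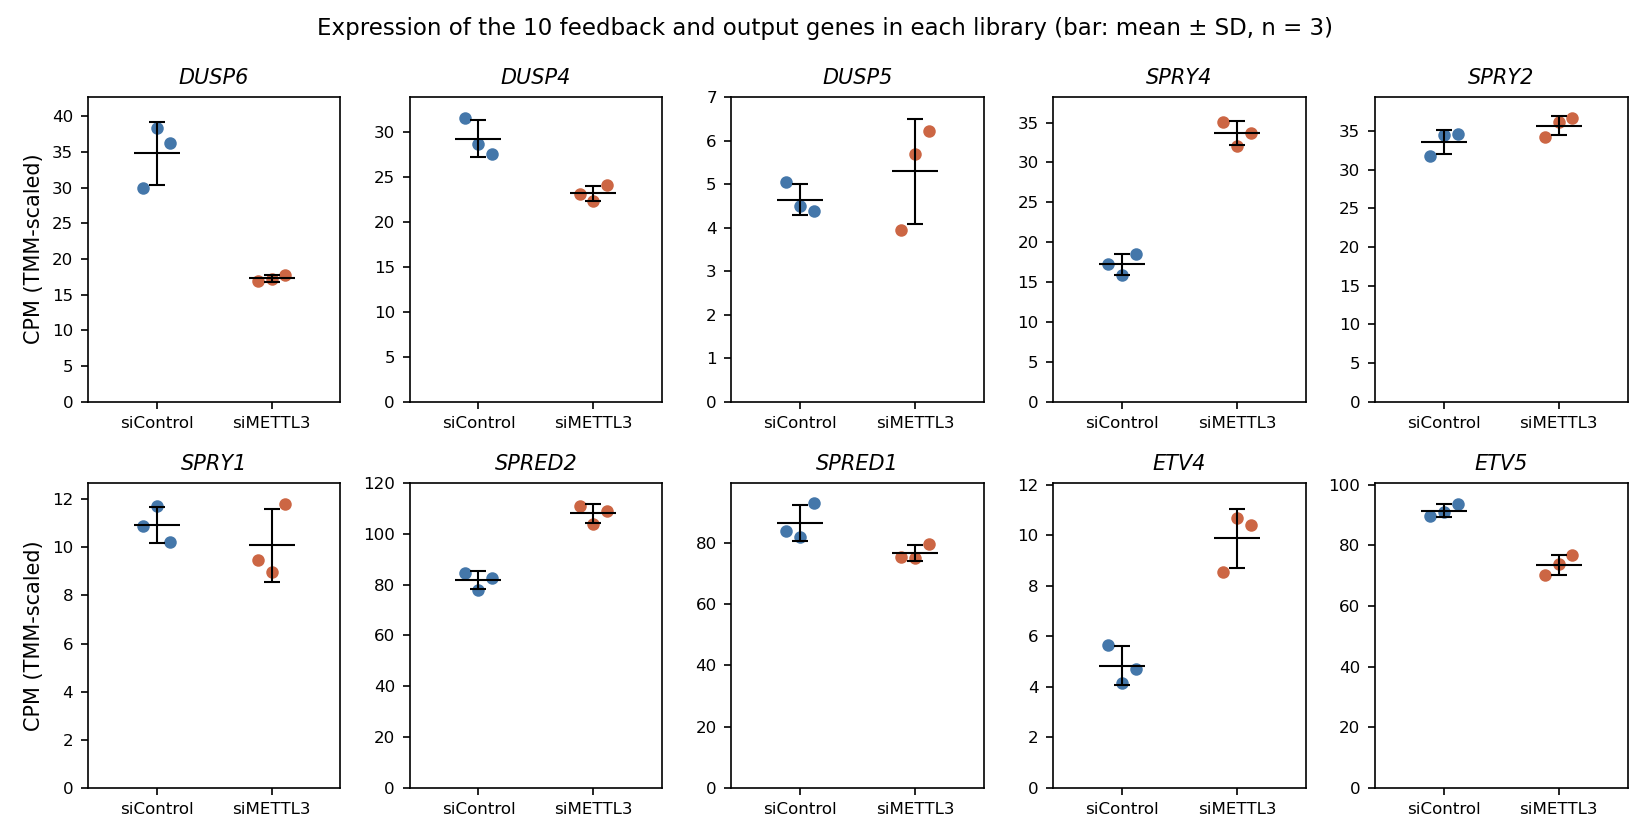
Expression of each of the 10 genes in CPM (vertical axes, starting at 0 and scaled per gene) in the 3 siControl and the 3 siMETTL3 libraries. Points are libraries and bars are the mean ± SD. The siMETTL3 points lie above all siControl points for SPRY4, SPRED2 and ETV4 and below them for DUSP6, DUSP4, ETV5 and SPRED1, and the groups overlap for DUSP5, SPRY1 and SPRY2.

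Among the phosphatases, DUSP6 (chromosome 12, 89347235 to 89352501, minus strand), an ERK-selective phosphatase widely read as a marker of ERK activity, changed most. Its raw counts were 645, 767 and 546 in siControl and 347, 374 and 365 in siMETTL3, or 29.9, 38.4 and 36.2 CPM against 16.9, 17.2 and 17.8 CPM. Every siMETTL3 library lay well below every siControl library, and the siMETTL3 values were much closer together. The mean fell from 34.8 ± 4.41 to 17.3 ± 0.463 CPM (SD, n = 3 here and throughout). The log2 fold change was -1.01 (standard error, SE, 0.101; FDR 5.79e-06). Counted from the lowest log2 fold change, DUSP6 ranked 104 of the 15311 genes tested.

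DUSP4 (chromosome 8, 29333064 to 29350684, minus strand), a nuclear phosphatase of ERK, p38 and JNK, was lower by less. It was measured at 31.6, 28.7 and 27.6 CPM in siControl and at 23.1, 22.4 and 24.1 CPM in siMETTL3. The groups did not overlap, and the log2 fold change was -0.34 (SE 0.0857, FDR 0.00679), which left 79.1% of the control level. DUSP5 (chromosome 10, 110497907 to 110511533, plus strand), the ERK-specific nuclear phosphatase, was expressed at the lowest level of the phosphatases, with raw counts of 109, 90 and 66 in siControl and 81, 124 and 128 in siMETTL3. Of its siMETTL3 libraries, 1 lay below and 2 above all siControl libraries. Its log2 fold change of 0.18 did not pass the threshold (FDR 0.487), and the 95% interval, from -0.23 to 0.59, leaves room for a rise or a fall.

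Among the Sprouty genes, SPRY4 (chromosome 5, 142310427 to 142326455, minus strand), whose product restrains RAS activation and RAF, was the one that changed. Its raw counts were 372, 317 and 279 in siControl and 723, 698 and 692 in siMETTL3, or 17.2, 15.9 and 18.5 CPM against 35.1, 32.1 and 33.7 CPM. The lowest siMETTL3 library lay far above the highest siControl library. The mean rose from 17.2 ± 1.33 to 33.6 ± 1.54 CPM. This was a log2 fold change of 0.97 (SE 0.0893), and its FDR of 2.97e-06 was the smallest of the 10 genes.

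SPRY2 (chromosome 13, 80335976 to 80341126, minus strand), the Sprouty best known as a brake on FGF receptor signalling, stood at 31.8, 34.5 and 34.6 CPM in siControl and 34.3, 36.2 and 36.7 CPM in siMETTL3. The groups overlapped, and the log2 fold change of 0.09 did not pass the threshold (FDR 0.393, 95% interval -0.07 to 0.25). SPRY1 (chromosome 4, 123396795 to 123403760, plus strand), known for restraining RET signalling in the developing kidney, stood at 10.9, 11.7 and 10.2 CPM in siControl and 9.48, 8.96 and 11.8 CPM in siMETTL3. Its highest value was in a siMETTL3 library, and its log2 fold change was -0.12 (FDR 0.51, 95% interval -0.41 to 0.16). For both genes the interval lies below the log2 fold change of SPRY4.

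Of the SPRED pair, SPRED2 was called. SPRED2 (chromosome 2, 65310851 to 65432637, minus strand) stood at 84.6, 77.7 and 82.7 CPM in siControl and at 111, 104 and 109 CPM in siMETTL3. The groups did not overlap, and the mean rose from 81.7 ± 3.58 to 108 ± 3.45 CPM (log2 fold change 0.40, SE 0.0596, FDR 0.000149). SPRED1 (chromosome 15, 38252836 to 38357249, plus strand), the gene mutated in Legius syndrome, stood at 84.0, 82.0 and 93.0 CPM in siControl and at 75.4, 74.9 and 79.5 CPM in siMETTL3. All its siMETTL3 values lay below all its siControl values, yet its log2 fold change of -0.17 narrowly missed the threshold (FDR 0.0515, 95% interval -0.31 to -0.03). Without siControl replicate 1 it passed (FDR 0.0331), and its FDR lay between 0.0331 and 0.159 across the alternatives.

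The PEA3 transcription factors moved apart. ETV5 (chromosome 3, 186046314 to 186110318, minus strand) stood at 89.8, 90.9 and 93.8 CPM in siControl and at 70.2, 73.8 and 76.7 CPM in siMETTL3. The groups were separate and tight, and the mean fell from 91.5 ± 2.09 to 73.6 ± 3.24 CPM (log2 fold change -0.31, SE 0.0597, FDR 0.00103). ETV4 (chromosome 17, 43527844 to 43579620, minus strand) had far fewer counts, 122, 83 and 71 in siControl and 176, 232 and 213 in siMETTL3, or 5.66, 4.15 and 4.71 CPM against 8.55, 10.7 and 10.4 CPM. The groups did not overlap, and the log2 fold change was 1.02 (SE 0.158, FDR 0.000226). ETV1, the remaining PEA3 factor, fell from 79.5 ± 10.8 to 63.9 ± 5.35 CPM (log2 fold change -0.31, FDR 0.0191), with 1 siMETTL3 library inside the siControl range. Its call was lost without siMETTL3 replicate 1 (FDR 0.0884) or replicate 2 (FDR 0.0792), and its FDR lay between 0.000657 and 0.0884 across the alternatives.

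**Figure D2:**
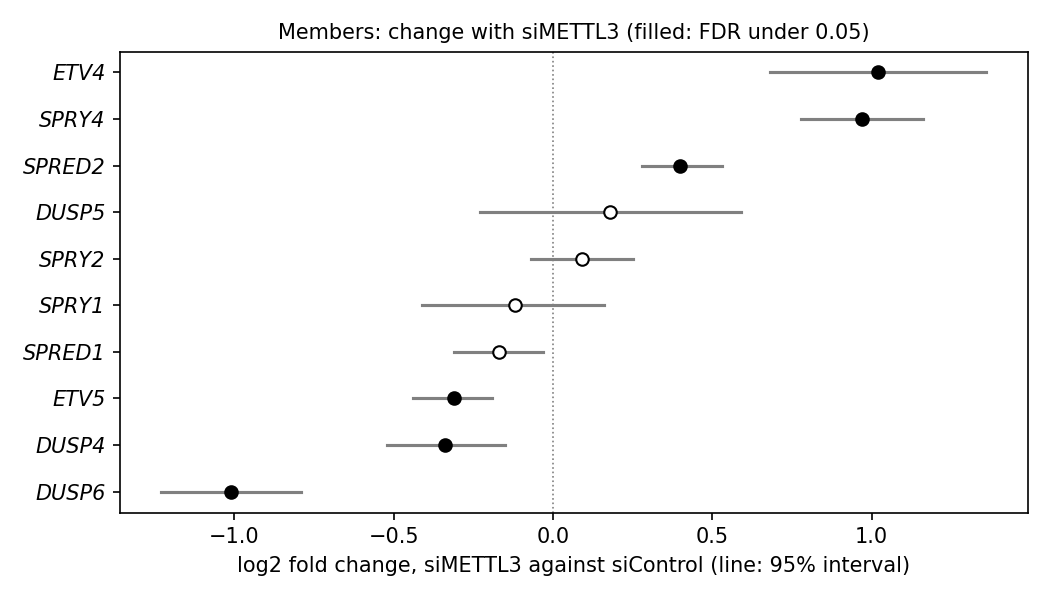
Log2 fold change of siMETTL3 against siControl (horizontal axis) for the 10 genes, ordered by size, with 95% intervals from the edgeR fit. Filled points passed an FDR of 0.05: ETV4, SPRY4 and SPRED2 to the right of 0 and DUSP6, DUSP4 and ETV5 to the left.

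Ratios of the raw counts of 2 genes within a library need no scaling between libraries, and were formed for all 8 pairs within a family after the values above had been seen. The SPRY4 to SPRY2 ratio was 0.542, 0.459 and 0.534 in siControl and 1.03, 0.885 and 0.918 in siMETTL3. The ETV4 to ETV5 ratio was 0.063, 0.0457 and 0.0502 in siControl and 0.122, 0.144 and 0.135 in siMETTL3, a difference of 1.35 on the log2 scale. The SPRED2 to SPRED1 ratio went from 0.948 ± 0.0595 to 1.41 ± 0.0498 and the DUSP4 to DUSP6 ratio from 0.855 ± 0.174 to 1.34 ± 0.0365. Thus SPRED2 and SPRED1 gave similar numbers of counts in control cells, while SPRED2 gave more in every siMETTL3 library. The groups did not overlap in 7 of the 8 ratios, SPRY1 to SPRY2 being the exception. No such share was computed for other pairs of genes, and among single genes 49.9% of all tested did not overlap. Several of the 8 ratios share a gene, so they are not independent of each other. For each of the 7 an exact two-sided permutation test gave p = 0.1, the smallest that 3 against 3 libraries allow, and 0.114 after Benjamini-Hochberg adjustment over the 8 ratios.

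**Figure D3:**
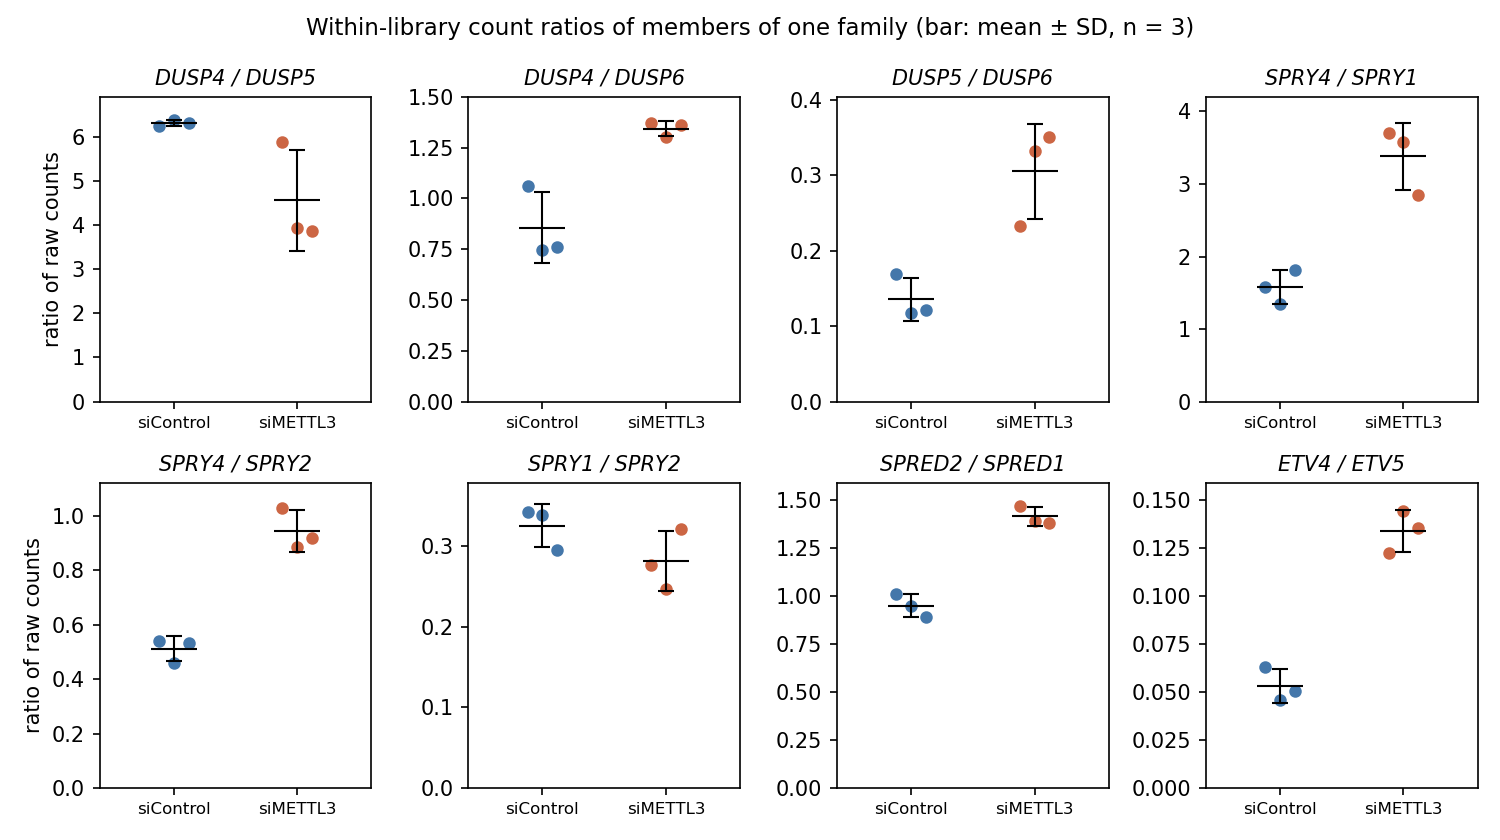
Ratio of raw counts (vertical axes, starting at 0) for the 8 pairs of genes of one family, by library. Points are libraries and bars are the mean ± SD. The SPRY4 to SPRY2 ratio lies between 0.459 and 0.542 in siControl and between 0.885 and 1.03 in siMETTL3, and the SPRY1 to SPRY2 ratios of the groups overlap.

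Levels were compared between genes as CPM per kilobase of canonical transcript. In siControl the order from the highest was ETV5 (22.4 ± 0.512), SPRED2 (18.1 ± 0.792), SPRY2 (14.7 ± 0.704), SPRED1 (11.9 ± 0.812), DUSP6 (9.61 ± 1.22), DUSP4 (5.27 ± 0.369), SPRY1 (4.20 ± 0.287), SPRY4 (3.51 ± 0.270), ETV4 (2.07 ± 0.325) and DUSP5 (1.88 ± 0.145). Of these neighbours, only the values of ETV4 and DUSP5 overlapped. In siMETTL3, SPRED2 (23.9 ± 0.763) stood above ETV5 (18.0 ± 0.795), and SPRY4 (6.86 ± 0.314) stood above DUSP6 (4.76 ± 0.128). ETV4 (4.22 ± 0.489), DUSP4 (4.18 ± 0.157) and SPRY1 (3.88 ± 0.589) overlapped with their neighbours there. The counts also take in introns, so the levels per transcript length may hold unspliced RNA. This bears on ETV4 and ETV5 as well as on the long SPRED1 and SPRED2 genes. The ETV4 span is 51777 bases for a transcript of 2335, and the ETV5 span 64005 for a transcript of 4082. For SPRED1 these are 104414 and 7270 bases, and for SPRED2 121787 and 4519.

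Counts were made over whole gene spans without regard to strand, which bears on several of the 10 genes. The ETV4 span lies wholly within that of DHX8, a splicing helicase gene on the other strand with 1715 to 2872 counts per library. DHX8 went from 121 ± 6.26 to 133 ± 1.83 CPM (log2 fold change 0.13, FDR 0.0842, and 0.0367 without siControl replicate 1, over a range of 0.0367 to 0.233 in all alternatives). The part of DHX8 reads in the ETV4 counts was not tested. Reads over several genes were counted for each, so the DHX8 counts also hold the ETV4 counts and are not a separate measurement. The ETV5 span shares 7.27% of its length with DGKG, a diacylglycerol kinase gene. DGKG had at most 185 counts in a library, fewer than the lowest ETV5 count of 1414. It fell from 9.58 ± 1.51 to 6.41 ± 0.968 CPM (log2 fold change -0.57, FDR 0.0118), a call that was lost without siMETTL3 replicate 2 (FDR 0.0518) or replicate 3 (FDR 0.0623), over a range of 0.0032 to 0.0623 in all alternatives. The GENCODE annotation also places noncoding genes within 4 of the spans, among them an antisense lncRNA over 28.23% of DUSP6, SPRY4-AS1 over 7.78% of SPRY4, ETV5-AS1 over 2.78% of ETV5 and a lncRNA on the same strand over 5.74% of SPRED2, whose reads cannot be told apart from those of the listed genes.

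The log2 fold change over all genes differed with the length of the gene span. Tested genes were ranked by span length and cut into 10 equal parts (deciles). The median log2 fold change was -0.16 in decile 1, the shortest, 0.07 in decile 9 and 0.03 in decile 10, the longest. DUSP6 and SPRY2, both in decile 1, had log2 fold changes of -1.01 and 0.09. ETV4 and ETV5, both in decile 7, where the median was 0.05, had log2 fold changes of 1.02 and -0.31. SPRY4 and DUSP5 shared decile 3 (median -0.06), with log2 fold changes of 0.97 and 0.18. SPRED2 (0.40) stood in decile 9 and DUSP4 (-0.34) in decile 4 (median -0.03).

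**Figure D4:**
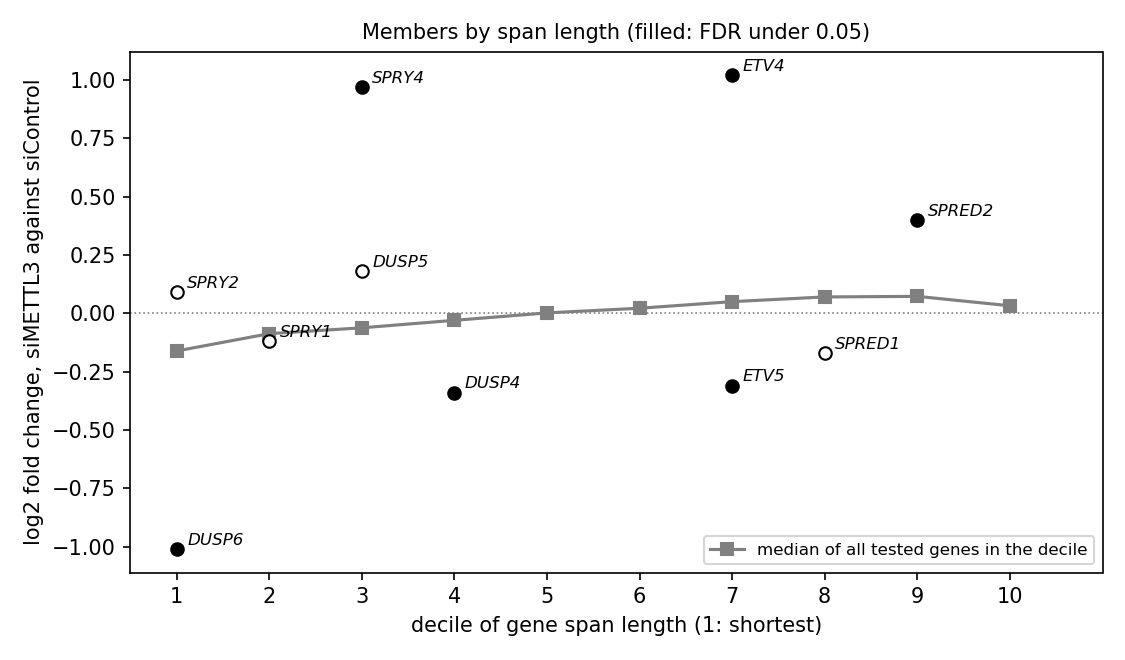
Log2 fold change of the 10 genes (points, filled where the FDR was under 0.05) against the decile of gene span length they fall in, with the median of all tested genes in each decile (squares). DUSP6 and SPRY2 share decile 1, at -1.01 and 0.09, and ETV4 and ETV5 share decile 7, at 1.02 and -0.31.

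METTL3 methylates adenosines within a short sequence context, of which GGACT, written with U in RNA, is a favoured form. Canonical transcripts of the 10 genes (GENCODE release 44) held between 2 (ETV4) and 11 (DUSP4) copies of GGACT on the sense strand. Their median density was 1.58 per kilobase, against 0.93 over the tested genes with a canonical transcript. The density was 1.98 per kilobase in DUSP4, 1.65 in DUSP6 and 0.98 in ETV5, which fell, and 1.55 in SPRED2, 0.86 in ETV4 and 0.82 in SPRY4, which rose. Among the genes that were not called it was 1.92 in SPRY1, 1.75 in SPRY2, 1.61 in DUSP5 and 0.69 in SPRED1. DUSP4 had a higher density than 90.9% of the tested genes and SPRED1 than 33.5%. Methylation itself was not measured in these libraries, so the copies are letters in a transcript and not m6A sites.

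Of 18 genes of the cascade, the kinases and adaptors between receptor and ERK, 2 rose and 2 fell, with a median log2 fold change of 0.07. Beside this list and those below stand the 18.6% of all tested genes called higher and the 19.2% called lower. KSR1, a scaffold that holds RAF, MEK and ERK together, rose from 55.4 ± 6.45 to 90.8 ± 3.52 CPM (log2 fold change 0.71, FDR 1.39e-05). SHC1, an adaptor that links receptors to RAS, fell from 168 ± 6.48 to 138 ± 2.11 CPM (log2 fold change -0.29, FDR 0.00107). MAP2K2, which encodes the kinase MEK2, rose by 0.28 on the log2 scale (FDR 0.00784), a call lost without siMETTL3 replicate 1 (FDR 0.057, range over all alternatives 0.000738 to 0.057). NRAS fell by 0.19 on the log2 scale (FDR 0.0287), a call lost without siControl replicate 2 (FDR 0.0789), siMETTL3 replicate 1 (FDR 0.0926) or siMETTL3 replicate 2 (FDR 0.148, range over all alternatives 0.00702 to 0.148). The other 14, HRAS, BRAF, MAP2K1 and MAPK3 among them, did not pass the threshold. The spans of KSR1 and SHC1 overlap other genes of the tables.

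Of 9 RAS GTPase-activating proteins, which switch RAS off, 3 rose and 1 fell (median log2 fold change 0.12). RASA1 fell from 174 ± 15.2 to 137 ± 11.6 CPM (log2 fold change -0.35, FDR 0.00275); its span overlaps CCNH. RASAL1 rose from a low 2.19 ± 0.0817 to 4.06 ± 0.606 CPM (log2 fold change 0.89, FDR 0.00426). RASA3 rose by 0.49 on the log2 scale (FDR 0.0166), but not past the threshold without siMETTL3 replicate 2 (FDR 0.0516, range over all alternatives 7.83e-05 to 0.0516). DAB2IP rose by 0.26 (FDR 0.0264), and its call was lost without siControl replicate 2 (FDR 0.0616) or without siMETTL3 replicate 1, 2 or 3 (FDR 0.0638, 0.0997 and 0.0767, range over all alternatives 0.000538 to 0.0997). NF1, the gene of the neurofibromin that SPRED proteins recruit, was not called.

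Of the 7 other MAP kinase phosphatases, DUSP1 alone was called. DUSP1, an immediate-early phosphatase of p38, JNK and ERK, stood at 20.9, 21.0 and 23.2 CPM in siControl and at 12.9, 13.8 and 14.7 CPM in siMETTL3. The groups did not overlap, and it fell by 0.65 on the log2 scale (FDR 0.000189). The median log2 fold change of the 7 was -0.10.

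Of 12 other ERK output genes tested, 1 rose and 3 fell (median log2 fold change 0.02), and SPRY3 and MYC were too low to be tested. Over all genes tested, 18.6% were called higher and 19.2% lower. EGR1, a zinc finger transcription factor induced within minutes of ERK activation, had raw counts of 56, 80 and 72 in siControl and 22, 24 and 20 in siMETTL3. It fell from 3.79 ± 1.11 to 1.05 ± 0.0667 CPM (log2 fold change -1.83, FDR 0.000239), in the same direction as DUSP6 and from a low level. FOS fell by 0.73 on the log2 scale from a similarly low level, at an FDR of 0.0498 that several alternatives moved past the threshold. It was lost without siControl replicate 2 (FDR 0.138), siControl replicate 3 (0.0768), siMETTL3 replicate 1 (0.085) or siMETTL3 replicate 3 (0.183), and, with all 6 libraries, under RLE, upper quartile or total count scaling, with limma-voom or without the robust option (FDR from 0.0501 to 0.0587), over a range of 0.0166 to 0.183 in all alternatives. CCND1, the gene of cyclin D1 and a target of ERK signalling, rose from 136 ± 3.48 to 194 ± 6.42 CPM (log2 fold change 0.51, FDR 1.16e-05), in the same direction as SPRY4; its span overlaps LTO1. PHLDA1, EPHA2, EPHA4, IL17RD and VGF were not called.

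Of 18 receptor tyrosine kinases tested, 6 rose and 1 fell (median log2 fold change 0.15), and KIT was too low to be tested. ALK rose from 700 ± 39.1 to 1181 ± 15.3 CPM (log2 fold change 0.76, FDR 6.21e-07). FGFR2 rose from 53.0 ± 3.77 to 104 ± 1.48 CPM and EGFR from 47.6 ± 2.26 to 90.2 ± 4.21 CPM, with log2 fold changes of 0.97 and 0.92. MET, named here after its value was seen, was the one that fell (log2 fold change -0.25, FDR 0.0126), and its call was lost without siMETTL3 replicate 1 or replicate 2 (FDR 0.0672 and 0.055, range over all alternatives 0.00906 to 0.0672). RET, FGFR1 and IGF1R were not called. All 5 lists were written with earlier results of these data known, and their counts are to be read against the 18.6% of all tested genes called higher and 19.2% called lower.

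**Figure D5:**
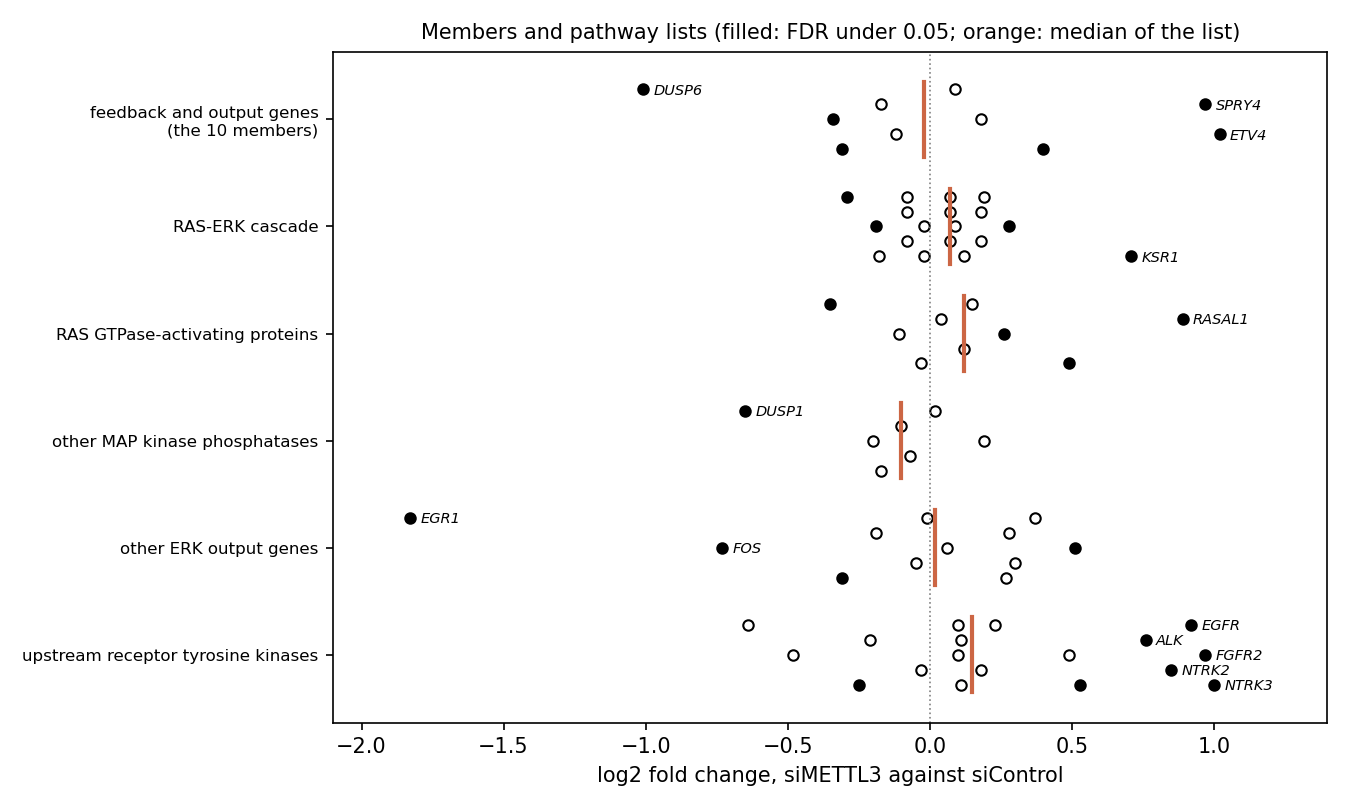
Log2 fold change of siMETTL3 against siControl (horizontal axis) for the 10 feedback and output genes and the tested genes of the 5 pathway lists. Filled points passed an FDR of 0.05, and orange bars are list medians, from -0.10 (other MAP kinase phosphatases) to 0.15 (receptor tyrosine kinases).

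The genes whose log2 CPM followed that of SPRY4 most closely across the 6 libraries, among genes averaging 3 or more in log2 CPM, were NCAM1 (Pearson r = 0.9994), ALK (0.9984) and CLSTN2 (0.9983). NCAM1 encodes a neural cell adhesion molecule and CLSTN2 a synaptic calsyntenin. Their log2 fold changes were 0.27, 0.76 and 1.42, against 0.97 for SPRY4. The 6 points fall into the 2 groups, so that the likeness mostly restates a difference between groups in the same direction.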

How the data were processed

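RNA-seq of poly(A) RNA was made from 3 siControl and 3 siMETTL3 libraries of Kelly cells. Per the submitters' processing notes, reads were handled with FastQC 0.11.5, Trimmomatic 0.36, HISAT2 2.1.0 and Subread 1.5.3 on GRCh38. The deposited values are raw read counts per gene, made by the authors with featureCounts v1.5.3 on a protein-only GENCODE release 33, per the file headers, over whole gene spans, with reads over several genes counted for each and no strand option.

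Genes were filtered with filterByExpr (15311 kept) and scaled by TMM, and groups were compared with the quasi-likelihood test of edgeR 4.0.16 in R 4.3.3 (robust, no covariate, all 6 libraries); DESeq2 1.42.0, limma 3.58.1, other scalings and filters, a replicate block, a fit on genes without overlaps (in which METTL3 and the 10 members were kept whatever their overlaps) and leaving out each library were alternatives. SE is the absolute log2 fold change over the square root of F, and CPM uses TMM-scaled library sizes. Canonical transcripts came from GENCODE release 44 (found for 95.3% of tested genes), and promoters from RefSeq. Correlations used log2(CPM + 1).

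The genes and lists were chosen with earlier results of these data known. Named genes are METTL3, the 10 members, up to 4 called genes with the smallest FDR per list, the 3 genes most like the member with the smallest FDR, and overlapping genes. Same-numbered libraries were treated as unpaired in the main fit, and whether they are weakly paired was not tested. Some genes that these rules give are not reported here.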

Additional observations from a re-analysis of the deposited data

How the results depend on the processing

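All alternatives were planned. Across them, the number of members called higher was 3 in every fit, and that of members called lower was 3 or, where SPRED1 passed, 4. No gene followed changed sign. SPRED1 passed with no filter (log2 fold change -0.18, FDR 0.0445), on genes without overlaps, members kept (-0.19, FDR 0.0348), with the replicate block (-0.17, FDR 0.0331) and without siControl replicate 1 (-0.19). Leaving out each library in turn, the log2 fold change went from -1.11 to -0.93 for DUSP6, from 0.91 to 1.02 for SPRY4, from 0.92 to 1.16 for ETV4, from 0.37 to 0.43 for SPRED2, from -0.38 to -0.28 for DUSP4 and from -0.35 to -0.28 for ETV5. In those fits between 2091 and 3178 of all genes were called higher, and between 2119 and 3216 lower. On the 9520 genes left when those with overlapping spans were dropped, except METTL3 and the 10 members, which were kept, 1855 were higher and 1899 lower, since fewer genes were tested. That fit kept METTL3, ETV4 and ETV5 with their overlaps and so does not test what these add to their counts.

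In the same leave-one-out fits, between 1 and 4 cascade genes were called higher and between 1 and 3 lower, as were 1 to 4 RAS GTPase-activating proteins (higher), 1 to 2 other phosphatases (lower; 2 without siControl replicate 3), 1 to 2 other output genes (higher) and 1 to 3 (lower), and 0 to 1 receptors (lower). Cascade genes called higher were 4 under total count scaling, where the cause was not tested. On genes without overlaps, where KSR1, RASA1 and CCND1 drop out, 1 cascade gene and 0 output genes were higher and 0 GTPase-activating proteins were lower. The scaling moved the median log2 fold change of all genes to at most 0.021.

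The labels name no pairing of the libraries, and deviations from the group means correlated only weakly between the groups. The correlations were 0.06, 0.069 and 0.128 for equal replicate numbers and -0.122 to 0.065 for unequal ones. Each library correlated best with its own number except siControl replicate 1. That library reached 0.065 with siMETTL3 replicate 2 and 0.06 with siMETTL3 replicate 1. Whether the numbers mark a weak pairing was not tested. With the replicate block, 6166 genes were called, 5733 of them among the 5786 called without it. Depth limits DUSP5 and ETV4 most, which had at most 232 counts in a library.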
